A study of Mus musculus with 39 samples.

Results

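Quadruple breast arrays were compared with triple K5Cre breast arrays to ask what differs when Bcat is added to a genotype that already carries SB, Tg and K5Cre. The arrays were taken by their genotype labels, with earlier results of these data known, and make up 27 of the 39 arrays of the series. The quadruple group (genotype SB, Tg, K5Cre and Bcat) holds 19 arrays from 15 animals, and the triple K5Cre group (genotype SB, Tg and K5Cre) holds 8 arrays from 8 animals. By their genotype labels both groups therefore share SB, Tg and K5Cre and differ only in Bcat. Sleeping Beauty, named in the title of the series, is a mobile DNA element whose insertions are used to find cancer genes in mice. K5Cre is the usual name of a Cre recombinase driven by the keratin 5 promoter, which is active in basal cells of the mammary gland and in other stratified epithelia. Bcat is a common short form of beta-catenin, but the labels state neither the kind of allele nor the age, sex or strain of the animals. They call the tissue breast and do not say what was sampled. Animals were read from the sample titles. Q190 and Q2154 gave 2 arrays each (A and B), Q648 gave 3 arrays, and the titles do not say whether arrays of an animal are separate lesions or repeats.

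Beta-catenin, encoded by Ctnnb1, has a structural role at adherens junctions, where it links cadherins to alpha-catenin and the actin cytoskeleton. It is also the effector of the canonical Wnt pathway: without a Wnt ligand it is phosphorylated in a complex with Axin, Apc and Gsk3b and degraded, and with the ligand it accumulates and acts with TCF and LEF factors on target genes such as Axin2 and Lef1. In the mammary gland this pathway is known for its part in basal stem cells, and forced signalling in basal cells is known to yield tumours with squamous or hair-like differentiation.

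Each value is a deposited log2 level of total RNA from bulk tissue, so fewer cells of a type and less RNA per cell cannot be told apart. A difference of 1 is a 2-fold difference. The median level per array lay between 5.10 and 5.27 in all 27 arrays. The defining luminal epithelial gene Epcam lay at 8.13 to 12.88 in the quadruple arrays and at 11.73 to 13.30 in the triple K5Cre arrays, so epithelium was present in both groups. Q648-1 was the quadruple array lowest in Epcam. Q629 and T627 were low in Xist, the RNA of the inactive X chromosome, at 5.72 and 6.999, while the 3 Y-linked genes measured stayed between 2.25 and 3.33 in every one of the 27 arrays.

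No gene passed the test for a difference in level between the groups. With limma over all 18194 genes and Benjamini-Hochberg adjustment, 0 genes (0%) reached an adjusted p under 0.05, and the smallest adjusted p was 0.539. At an unadjusted p under 0.05 there were 811 genes (4.46%), of which 234 (1.29%) were higher and the rest (3.17%) lower in quadruple arrays. No gene had quadruple and triple K5Cre ranges that did not overlap (0%). The differences were small for most genes: their median size was 0.09, with a median standard error of 0.13. The 95% confidence interval lay within a 2-fold difference either way for 15956 genes (87.7%), and within 0.5 log2 units for 11628 genes (63.9%). By at least 1 log2 unit 138 genes (0.758%) differed, 85 of them (0.467%) higher and 53 (0.291%) lower, and for 193 genes (1.06%) the difference of the means exceeded the SD of each group. Differences between single arrays were wider: 13.6% of genes differed at least 2-fold between arrays of 2 quadruple animals, 14.5% between 2 triple K5Cre animals, and 13.9% between a quadruple and a triple K5Cre animal (medians over 166, 28 and 152 pairs). Arrays were thus about as far apart within a group as between the groups.

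The transcript of beta-catenin itself was read by 3 Ctnnb1 probe sets, and they did not give the same answer. The brightest, 1420811_a_at, had levels of 12.37, 12.78 and 13.36 (lowest, median and highest) in the quadruple arrays and of 12.65, 12.92 and 13.39 in the triple K5Cre arrays. Its groups covered each other, the fitted difference was -0.08 (SE 0.10, 95% confidence interval -0.28 to 0.13), and the adjusted p was 0.974 over all probe sets. The other pair of probe sets was higher in many quadruple arrays. By 1450008_a_at the quadruple levels were 9.79, 11.26 and 12.93, and the triple K5Cre levels were 10.03, 10.55 and 11.62. By 1430533_a_at, the dimmest, the quadruple levels were 7.33, 9.15 and 11.89, and the triple K5Cre levels were 7.38, 8.17 and 9.30. The ranges overlapped in both cases, but the same 8 quadruple arrays, from 6 animals, lay above every triple K5Cre array by both probe sets: Q190A, Q190B, Q648-1, Q648-2, Q548, Q545, Q535 and Q552.

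With the arrays of an animal averaged, 1430533_a_at stood at 9.46 ± 1.27 in quadruple animals (SD, n = 15) and at 8.11 ± 0.64 in triple K5Cre animals (SD, n = 8), a difference of 1.35 with an exact two-sided permutation p of 0.00768. For 1450008_a_at the means were 11.38 ± 0.78 and 10.61 ± 0.48, with an exact permutation p of 0.0185, and for 1420811_a_at they were 12.89 ± 0.26 and 12.96 ± 0.23, with an exact permutation p of 0.544. Benjamini-Hochberg adjustment over the 3 exact tests gave 0.0230, 0.0278 and 0.544. In limma over all 45101 probe sets the difference of 1430533_a_at was 1.37 (SE 0.48, 95% confidence interval 0.39 to 2.35) and did not pass, with an adjusted p of 0.963, and 290 probe sets (0.643%) had a p at least as small. The probe sets were looked at one by one after the values had been seen. A disagreement of this size was rare: the differences of the Ctnnb1 probe sets spanned 1.59, against a median span of 0.14 over 9012 genes with more than 1 probe set, and 3 genes (0.0333%), Ctnnb1 included, had a span that wide. Where each probe set lies in the transcript was not examined here.

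**Figure D1:**
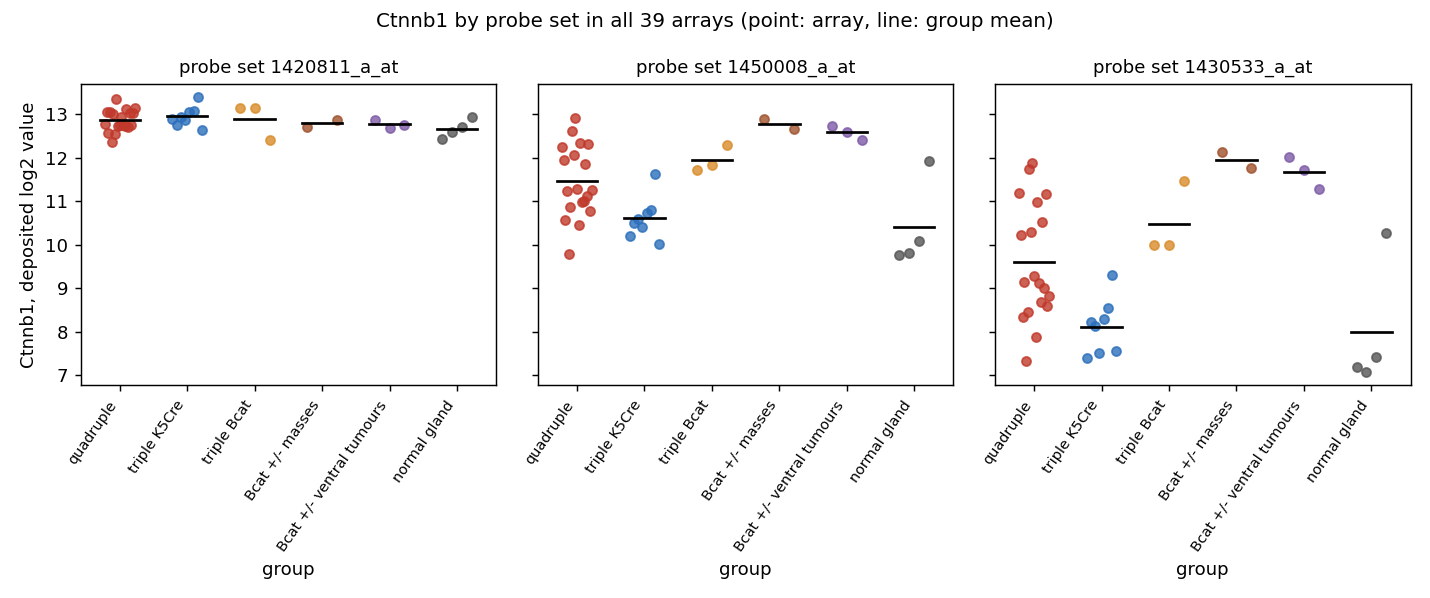
Deposited log2 level of Ctnnb1 by each of its 3 probe sets in all 39 arrays, with a point per array and a line at each group mean. By 1420811_a_at the quadruple and triple K5Cre points cover each other, while by 1450008_a_at and 1430533_a_at 8 quadruple points lie above every triple K5Cre point.

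The other arrays of the series place these levels. By 1430533_a_at the 3 triple Bcat arrays (SB, Tg and Bcat, without K5Cre) lay at 9.99 to 11.47, the 2 arrays of Bcat +/- masses at 11.76 to 12.13 and the 3 arrays of Bcat +/- ventral tumours at 11.29 to 12.02. Of the 4 normal mammary glands, the one of the triple Bcat genotype lay at 10.26 and the quadruple one at 7.18, and those of the triple K5Cre genotype lay at 7.07 and 7.43. Every array whose label names Bcat and not K5Cre was thus above the highest triple K5Cre breast array (T817, 9.30), whereas the quadruple arrays ran through both ranges. Q2164, at 7.33, lay below the lowest triple K5Cre array (T635, 7.38), and 10 quadruple arrays lay within the triple K5Cre range although their label carries Bcat.

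A further pair of genes, named after their values had been seen, was high in quadruple arrays of the same kind. Dnase2b, which encodes an acid deoxyribonuclease, had levels of 2.78, 3.08 and 6.01 (lowest, median and highest) in the quadruple arrays and of 2.82, 2.92 and 3.16 in the triple K5Cre arrays. It exceeded 5 in 5 quadruple arrays from 4 animals (Q190A, Q190B, Q648-1, Q548 and Q545), and these were the 5 arrays with the highest 1430533_a_at level. Dkk1, which encodes a secreted Wnt antagonist and is itself a known target of the pathway, had levels of 3.31, 3.60 and 12.05 in the quadruple arrays and of 3.38, 3.56 and 3.71 in the triple K5Cre arrays. It stood at 12.05 in Q648-1, at 9.97 in Q190A and at 9.94 in Q190B, then at 4.95 in Q548 and 4.82 in Q545, and every triple K5Cre array stayed at or below 3.71. Neither gene differed in mean by the test of all genes: the difference was 0.71 (SE 0.42) for Dnase2b and 1.05 (SE 0.88) for Dkk1, both with a limma adjusted p of 0.995.

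Across the 15 quadruple animals, the 1430533_a_at level was set against 4 other measures, and no relation passed. With Axin2, the feedback inhibitor most used as a readout of canonical Wnt signalling, Pearson's r was 0.42 (permutation p = 0.113, adjusted 0.450) and Spearman's rho 0.25 (p = 0.375, adjusted 0.749). Without the 2 animals farthest from the median level, r was 0.63. With Lef1, the partner factor of beta-catenin on DNA, r was 0.28 (permutation p = 0.304, adjusted 0.609) and rho 0.47 (p = 0.0783, adjusted 0.313), and r was 0.54 without the 2 farthest animals. With the mean of the canonical Wnt targets r was 0.20 (permutation p = 0.477, adjusted 0.636) and rho -0.03 (p = 0.924), and with the brightest Ctnnb1 probe set r was -0.09 (permutation p = 0.744) and rho -0.14 (p = 0.630). Without the 2 farthest animals these r were 0.44 and 0.22. None of the 4 r values without those animals was tested. The labels give no batch within which to repeat these values.

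Among genes of the beta-catenin complex and the adherens junction, with Ctnnb1 included by its brightest probe set, the groups were close. Of the 20 genes of the beta-catenin complex and the adherens junction, 0 passed in either direction, 12 had a higher mean in quadruple arrays (45.5% of all genes did), and the median difference was 0.01 against -0.02 over all genes. For 19 of the 20 the 95% confidence interval excluded a 2-fold difference. Ctnnb1 was among these by its brightest probe set only. Its intervals by 1450008_a_at (0.16 to 1.40) and 1430533_a_at (0.39 to 2.35) did not exclude it. The gene with the smallest p was Ctnna1, the alpha-catenin that binds beta-catenin at the junction, with levels of 10.89, 11.56 and 11.92 in quadruple arrays and of 11.54, 11.73 and 11.94 in triple K5Cre arrays (difference -0.26, SE 0.11, limma adjusted p = 0.995). Tle3, a corepressor that occupies TCF factors when beta-catenin is absent, stood at 9.51, 9.96 and 10.25 and at 9.14, 9.80 and 10.16 (difference 0.21, SE 0.12). Cdh1, the E-cadherin of the junction, stood at 11.74 ± 0.77 in quadruple arrays (SD, n = 19) and 12.06 ± 0.23 in triple K5Cre arrays (SD, n = 8), and its lowest quadruple level was 8.91.

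Wnt7b had the second smallest p of all genes and the smallest among the 19 Wnt ligand genes, of which 0 passed in either direction. This ligand of the canonical pathway, known in mammary and skin epithelium, had levels of 6.55, 7.14 and 7.87 in the quadruple arrays and of 7.17, 7.92 and 9.08 in the triple K5Cre arrays. Of the quadruple arrays, 11 lay below every triple K5Cre array, and 4 triple K5Cre arrays lay above every quadruple array (T627, T848, T852 and T257). The difference was -0.82 (SE 0.18, 95% confidence interval -1.19 to -0.46), with a limma adjusted p of 0.539, and both Wnt7b probe sets had a lower mean in quadruple arrays, by -0.82 and -0.71. Wnt11, a mostly non-canonical ligand, stood at 6.05 ± 0.58 and 6.63 ± 1.00, a difference of -0.55 (SE 0.29). The median difference over the ligands was 0.05, and 11 of the 19 had a higher mean in quadruple arrays.

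One ligand was set apart by a single array. Wnt1, a canonical ligand and a classic site of retroviral integration in mouse mammary tumours, named here after its values had been seen, stood at 7.98 in Q520 and between 3.198 and 3.76 in the other 18 quadruple arrays. In the triple K5Cre arrays it stood between 3.19 and 3.69. Its mean differed by 0.31 (SE 0.32).

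Receptors, modulators and targets of the pathway showed no shift that passed the test. Of 29 receptor and secreted modulator genes, 0 passed and 12 had a higher mean in quadruple arrays, with a median difference of -0.08. Ror1, a receptor for non-canonical Wnt ligands, stood at 7.65 ± 0.60 in quadruple and 6.87 ± 1.09 in triple K5Cre arrays, and T627 (5.08) and T848 (5.78) were its lowest arrays. Rspo4, which encodes a secreted enhancer of Wnt signalling, stood at 3.85 ± 0.19 and 4.12 ± 0.44, with its highest level (5.10) in T817. Of the 22 canonical targets measured, 0 passed, 13 had a higher mean in quadruple arrays and the median difference was 0.08, but the intervals were wide: only 7 of the 22 excluded a 2-fold difference.

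Axin2 shows the width of the target levels. It had levels of 4.99, 8.48 and 9.49 in the quadruple arrays and of 5.29, 7.31 and 9.48 in the triple K5Cre arrays. Among triple K5Cre arrays it was high in T817 (9.48), T857 (8.59), T635 (8.495) and T856 (8.31) and low in T852 (6.30), T848 (5.58), T257 (5.50) and T627 (5.29), so high and low levels were both present without Bcat in the genotype. The difference was 0.67 (SE 0.53, 95% confidence interval -0.39 to 1.74), with a limma adjusted p of 0.995. The group means of the 2 Axin2 probe sets differed by 0.17 and 0.78. Lef1 had levels of 4.67, 5.19 and 7.97 in the quadruple arrays and of 4.44, 4.74 and 8.32 in the triple K5Cre arrays, where T817 alone was above 5.02 (difference 0.36, SE 0.42). Lgr5, an R-spondin receptor and stem cell marker, stood at 7.66 ± 1.27 and 6.74 ± 1.24, and Rnf43, a ligase that removes Wnt receptors, at 7.19 ± 0.94 and 6.52 ± 1.57. The means of these 4 targets were higher in quadruple arrays, each by less than the SD of either group.

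Ttc36, a tetratricopeptide repeat gene, had the smallest p of all genes. Its levels were 4.35, 5.18 and 7.35 in the quadruple arrays and 5.02, 6.87 and 8.497 in the triple K5Cre arrays. T848 (8.497) and T852 (8.46) were above every quadruple array, 6 quadruple arrays were below every triple K5Cre array, and T627 (5.02) lay among the quadruple levels. The difference was -1.53 (SE 0.33, 95% confidence interval -2.20 to -0.85) with a limma adjusted p of 0.539. It passed under 2 of the other settings and was the only gene called there: without T627 the difference was -1.83 with an adjusted p of 0.0159, and without Q629 and both T627 tissues, the arrays low in Xist, it was -1.83 with an adjusted p of 0.0391. The limma adjusted p of Ttc36 swung widely, up to 0.9998 under other settings and up to 0.99998 with 1 array left out. Its difference stayed negative throughout, between -1.83 and -1.31 with 1 array left out.

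The other 10 genes with the smallest p included 9 with a lower mean in quadruple arrays. Sytl2, an effector of vesicle transport, had levels of 4.08, 5.78 and 7.40 in quadruple and of 5.86, 6.89 and 8.76 in triple K5Cre arrays (difference -1.20, SE 0.34). Morrbid, a long non-coding RNA known to control the lifespan of myeloid cells, had levels of 6.62, 7.47 and 8.91 and of 7.90, 8.64 and 9.75 (difference -0.90, SE 0.25). Slc25a30, a mitochondrial carrier, had levels of 6.83, 7.72 and 8.43 and of 7.51, 8.41 and 9.93 (difference -0.90, SE 0.23), although its 5 probe sets differed from each other, from -0.91 to 0.03. For these 3 genes 10, 12 and 6 quadruple arrays lay below every triple K5Cre array, and all ranges overlapped. Rnf6, a ubiquitin ligase gene, stood at 8.83 ± 0.33 and 9.48 ± 0.44. Pafah1b3, a subunit of an acetylhydrolase of platelet-activating factor, stood at 9.20 ± 0.41 and 9.76 ± 0.35, and Nudt1, which removes oxidised nucleotides, at 8.40 ± 0.32 and 8.89 ± 0.39. Sez6l2, Smim6 and Tekt1 lay near the lower end of the scale and differed by -0.40, -0.31 and -0.25. H2bc22, a histone H2B gene, was the one with a higher mean, at 4.64 ± 0.27 in quadruple and 4.24 ± 0.24 in triple K5Cre arrays (difference 0.39, SE 0.11). Its only probe set was a cross-hybridising one, so the signal cannot be assigned to H2bc22 alone. Both of its means lay below the median level of every array. The limma adjusted p of all 10 was 0.995.

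Basal genes had higher means in quadruple arrays, and 1 triple K5Cre array carried much of that. Krt5, the basal keratin whose promoter drives K5Cre, had levels of 9.44, 12.12 and 12.73 in the quadruple arrays and of 5.74, 11.17 and 12.35 in the triple K5Cre arrays. Its lowest level by far was in T627 (5.74), and the next lowest triple K5Cre array was T852 (9.98). The difference was 1.00 (SE 0.55, limma adjusted p = 0.995) and 0.27 without T627. Trp63, which encodes the p63 factor of basal cells, had levels of 7.93, 10.61 and 11.20 and of 4.02, 9.90 and 11.21, again with T627 lowest, and differed by 0.99 (SE 0.57) with T627 and by 0.19 without it. The 4 Trp63 probe sets differed from each other, from -0.07 to 0.99. Krt14, the partner keratin of Krt5, had levels of 7.76, 12.96 and 13.99 and of 7.37, 11.52 and 13.40 (difference 0.98, SE 0.71, and 0.42 without T627). Of 19 basal and myoepithelial genes 0 passed, 16 had a higher mean in quadruple arrays (45.5% of all genes), and the median difference was 0.28.

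Luminal genes varied between the arrays of each group. Krt8 and its partner keratin Krt18 stood at 12.15 ± 0.95 and 11.79 ± 0.97 in quadruple arrays (SD, n = 19) and at 12.33 ± 1.34 and 12.02 ± 1.38 in triple K5Cre arrays (SD, n = 8), with differences of -0.10 (SE 0.44) and -0.14 (SE 0.45) that changed sign under some settings. Krt8 was at 13.28 or above in 4 triple K5Cre arrays (T257, T627, T848 and T852) and at or below 11.43 in the other 4. Krt7, a further luminal keratin, stood at 9.30 ± 1.44 and 10.59 ± 1.44 (difference -1.08, SE 0.58), and Epcam at 11.81 ± 1.10 and 12.52 ± 0.58 (difference -0.59, SE 0.41). Of 17 luminal genes 0 passed, 7 had a higher mean in quadruple arrays, and only 3 had an interval that excluded a 2-fold difference. Vim, the mesenchymal intermediate filament, stood at 11.50 ± 1.06 and 11.43 ± 0.69, with a difference of 0.00 (SE 0.37) whose sign depended on the setting.

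**Figure D2:**
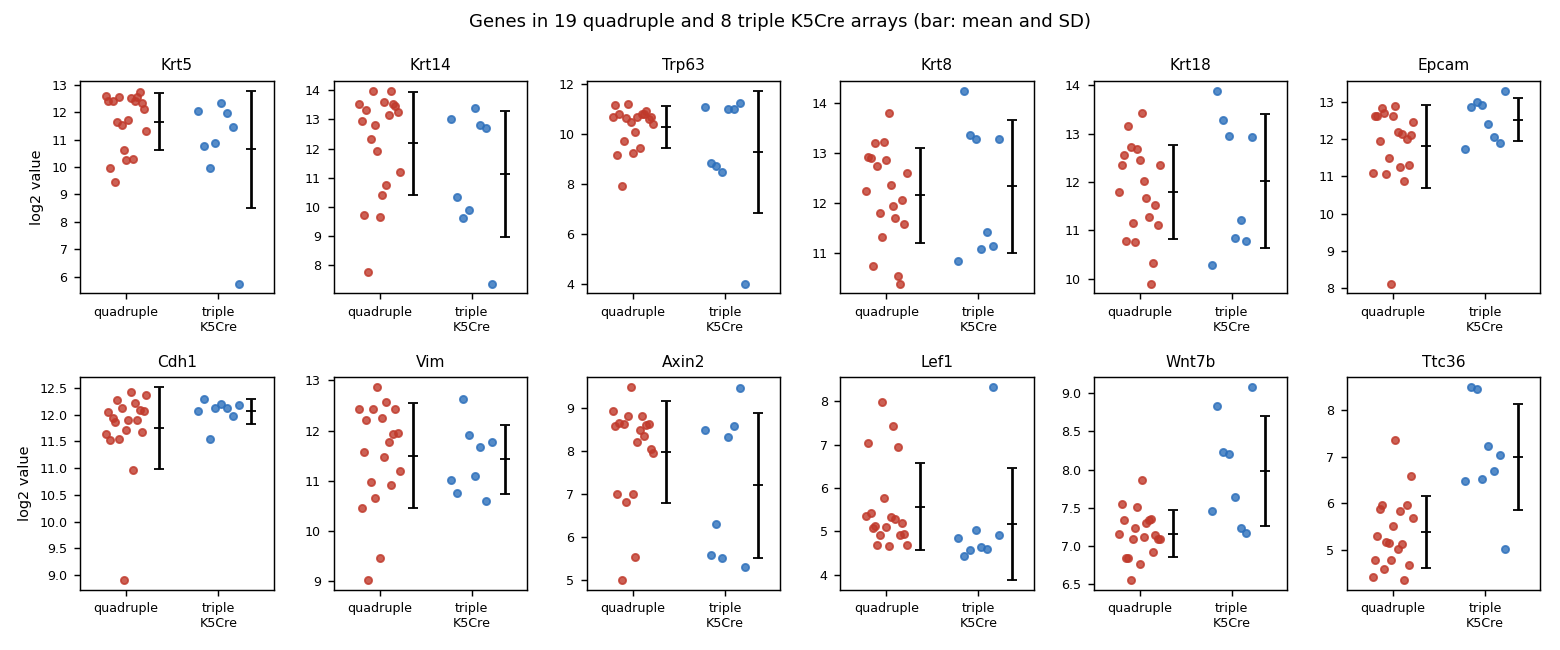
Deposited log2 level of 12 genes in the 19 quadruple arrays (red, left) and the 8 triple K5Cre arrays (blue, right), with bars for the mean and SD of each group. The groups overlap in every panel, T627 lies at 5.74 for Krt5 and 4.02 for Trp63, and T817 lies at 8.32 for Lef1.

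Milk protein genes had the largest median difference of the 40 lists. Of the 12 genes 11 had a higher mean in quadruple arrays, the median difference was 1.32, and 0 passed the test. None of the 12 had an interval that excluded a 2-fold difference. Glycam1, a milk mucin, had levels of 3.25, 7.05 and 14.04 in the quadruple arrays and of 3.42, 3.93 and 13.74 in the triple K5Cre arrays, the largest fitted difference of all genes at 2.56 (95% confidence interval -0.48 to 5.61). Btn1a1, a protein of the milk fat globule membrane, had levels of 4.34, 8.90 and 12.83 and of 4.90, 6.27 and 11.67 (difference 1.80, SE 1.02). Xdh, which is needed for milk fat secretion, had levels of 8.26, 9.81 and 12.14 and of 7.97, 8.84 and 10.54 (difference 0.85, SE 0.37). The list mean ran from 4.92 in Q2154A to 13.46 in Q648-3 among quadruple arrays, and T257 at 12.44 was the one triple K5Cre array above 7.98. By the list mean, high milk levels were thus seen in 1 triple K5Cre animal and in several quadruple animals. Single caseins differed from this: Csn3 had a median of 12.34 in quadruple and 11.55 in triple K5Cre arrays, and Csn1s1 of 11.99 and 10.92. Csn1s2b was low in most arrays of both groups, with medians of 2.80 and 2.68.

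Squamous genes had wide ranges in both groups, and the highest hair gene levels were in quadruple arrays. The mean of 27 squamous and cornified envelope genes stood at 9.05 ± 2.57 in quadruple arrays and 8.51 ± 2.77 in triple K5Cre arrays, with 20 higher means in quadruple arrays, a median difference of 0.27 and 0 genes that passed. Tgm3, a transglutaminase of the cornified envelope, had levels of 4.74, 5.61 and 10.92 and of 4.97, 5.24 and 6.97. Sprr1b, an envelope precursor, had levels of 2.42, 9.23 and 13.29 and of 2.10, 5.66 and 10.34. The mean of 24 hair follicle and shaft genes stood at 6.20 ± 1.58 and 5.66 ± 1.24, with 20 higher means in quadruple arrays and 0 genes that passed. It reached 10.19 in Q535 among quadruple arrays and 8.52 in T817 among triple K5Cre arrays, and the other triple K5Cre arrays lay at 5.99 or below. Krt84, a hair and nail keratin, had levels of 4.90, 5.58 and 11.26 and of 4.98, 5.09 and 6.18, and Hoxc13, a regulator of hair keratins, of 4.55, 5.28 and 10.42 and of 4.29, 4.89 and 7.42. Of 7 sebaceous gland genes 0 passed, and Mc5r, a melanocortin receptor of that gland, stood at 3.82 ± 0.36 and 3.55 ± 0.12, with a median difference of 0.12 for the list.

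**Figure D3:**
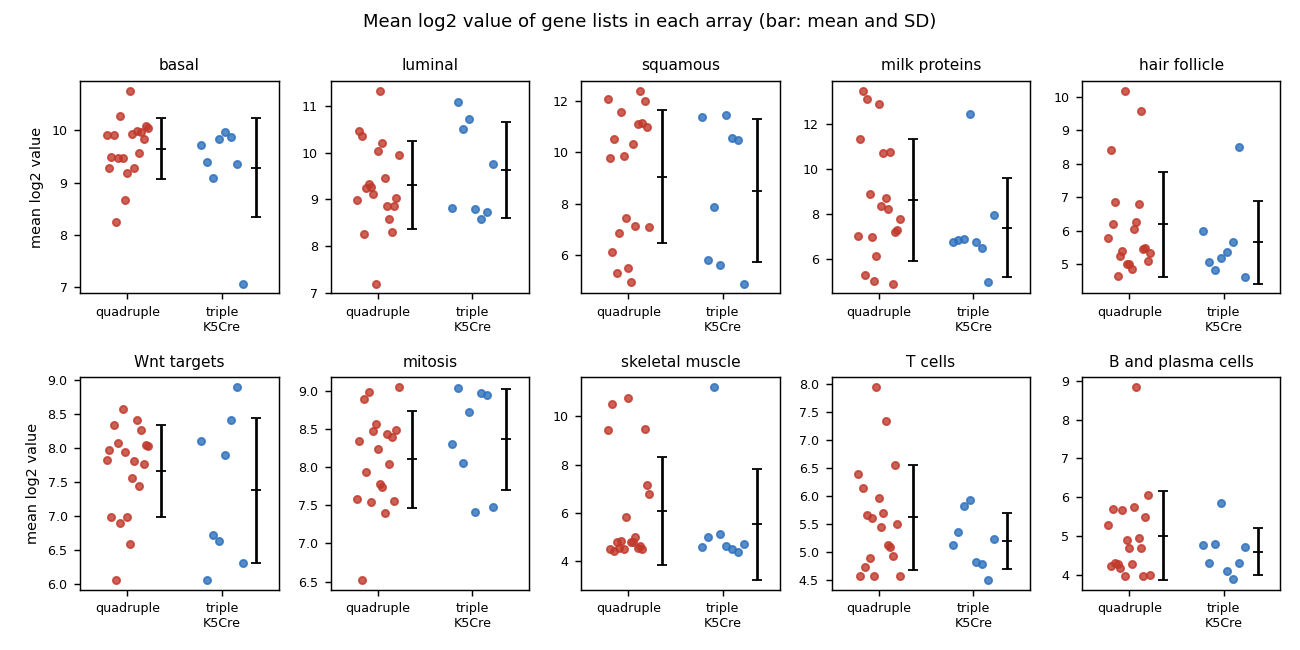
Mean log2 level of 10 gene lists in each quadruple array (red, left) and each triple K5Cre array (blue, right), with bars for the mean and SD. The single high triple K5Cre points are T257 for milk proteins (12.44), T817 for hair follicle genes (8.52) and T852 for skeletal muscle (11.20).

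Cell cycle genes had slightly lower means in quadruple arrays. Of 22 mitosis genes 1 had a higher mean in quadruple arrays, the median difference was -0.24 and 0 passed, and 21 of the 22 had an interval that excluded a 2-fold difference. Mki67, the proliferation marker, stood at 10.26 ± 0.59 and 10.22 ± 0.67 and was that 1 gene, with a difference of 0.06 (SE 0.26) that changed sign under some settings. Kif20a, a kinesin of cell division, stood at 7.34 ± 0.60 and 7.87 ± 0.69, and Cenpa, the centromeric histone, at 8.89 ± 0.61 and 9.28 ± 0.73. Of 23 DNA replication genes 2 had a higher mean in quadruple arrays and 0 passed, with a median difference of -0.14 and 22 intervals that excluded a 2-fold difference. Tk1 (thymidine kinase) stood at 8.27 ± 0.66 and 8.76 ± 0.65, and Rfc4 (a subunit of the clamp loader) at 7.79 ± 0.66 and 8.24 ± 0.37.

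Receptors, ligands and feedback genes of the EGF and ERK pathway also had mostly lower means in quadruple arrays. Of 24 genes 5 had a higher mean, the median difference was -0.30, 0 passed, and 4 reached an unadjusted p under 0.05, all lower (3.17% of all genes were lower at that level). Spry4, a feedback inhibitor of receptor signalling, had levels of 4.82, 5.11 and 5.47 in quadruple arrays and of 5.11, 5.35 and 5.78 in triple K5Cre arrays (difference -0.27, SE 0.09). Spry1, of the same family, had levels of 6.72, 7.70 and 8.57 and of 7.15, 8.43 and 9.13 (difference -0.59, SE 0.22). Both had a limma adjusted p of 0.995. T257 had the lowest list mean among triple K5Cre arrays (7.02), while the other 7 lay between 7.81 and 8.28.

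No gene of the cell cycle inhibitor, p53 target and tumour suppressor lists passed. Cdkn2a, which encodes the p16 and Arf inhibitors, had levels of 4.29, 8.49 and 9.56 in quadruple and of 7.75, 9.08 and 10.67 in triple K5Cre arrays (difference -0.85, SE 0.53, limma adjusted p = 0.995). Gadd45a, a stress-induced target of p53, stood at 7.95 ± 0.61 and 8.63 ± 1.11 with its highest level (10.73) in T627, and Fas, a death receptor, at 6.26 ± 0.72 and 5.74 ± 0.51. Of the 19 inhibitor and p53 target genes 6 had a higher and 13 a lower mean in quadruple arrays, with a median difference of -0.11. Of 30 tumour suppressor genes 15 had a higher mean, the median difference was 0.00, and 3 were higher and 2 lower at an unadjusted p under 0.05 (1.29% and 3.17% of all genes). Arid1a, a subunit of the SWI/SNF chromatin complex, had levels of 9.13, 9.44 and 9.82 and of 8.48, 9.27 and 9.72 (difference 0.31, SE 0.11), and Nf1, which encodes a negative regulator of Ras, had levels of 5.34, 6.14 and 7.02 and of 5.45, 6.47 and 7.61 (difference -0.52, SE 0.21). Of 37 genes known as targets of insertional mutagens 0 passed and 33 had an interval that excluded a 2-fold difference. The receptor gene Erbb2 differed by -0.40 (SE 0.19) and the coactivator gene Zmiz1 by -0.28 (SE 0.13).

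No gene of the other developmental pathways passed. The median difference was -0.07 over 21 FGF ligand and receptor genes, 0.05 over 20 Notch genes, 0.20 over 13 Hedgehog genes, 0.07 over 23 TGF-beta and BMP genes and 0.04 over 25 Hox genes. Of the Hedgehog genes 12 had a higher mean in quadruple arrays and of the FGF genes 4 did, against 45.5% of all genes. Smo, the transducer of that pathway, stood at 9.38 ± 0.35 in quadruple and 8.98 ± 1.20 in triple K5Cre arrays, and its lowest triple K5Cre level was again in T627 (6.10), with the other 7 at 8.88 or above. Gas1, a Hedgehog co-receptor, stood at 11.08 ± 0.64 and 10.47 ± 0.87. Rfng, which glycosylates Notch, differed by 0.34 (SE 0.13) and the Notch ligand gene Dll4 by -0.33 (SE 0.16). Bmpr1b, a BMP receptor, differed by 0.61 (SE 0.28), and Hoxb5 by 0.59 (SE 0.28).

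Stromal, hypoxia and interferon genes did not pass either. Of 17 collagen and matrix genes 4 had a higher mean in quadruple arrays, with a median difference of -0.16, and Fn1 (fibronectin) stood at 10.07 ± 1.36 and 10.85 ± 1.10. Of 14 genes of epithelial-mesenchymal transition 9 had a higher mean, with a median difference of 0.01. Of 15 matrix metalloproteinase and inhibitor genes 10 had a higher mean, with a median of 0.22. Mmp7, an epithelial matrix protease and known Wnt target, had levels of 5.25, 6.04 and 10.19 in quadruple arrays, against 4.88, 5.62 and 5.98 in triple K5Cre arrays. Of 15 hypoxia and glycolysis genes 2 had a higher mean and the median difference was -0.24. P4ha1, a collagen prolyl hydroxylase induced by hypoxia, stood at 7.66 ± 0.99 and 8.39 ± 0.69, and Pgk1, a glycolytic enzyme, at 12.15 ± 0.53 and 12.53 ± 0.43. Of 16 interferon-stimulated genes 2 had a higher mean, with a median of -0.41, and the list mean ran from 5.59 to 10.92 in quadruple and from 6.22 to 10.16 in triple K5Cre arrays. Usp18, a negative regulator of interferon signalling, stood at 7.98 ± 1.42 and 8.88 ± 1.94.

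Markers of other cell types had wide and overlapping ranges. The list mean of 12 adipocyte genes ran from 5.16 to 11.52 in quadruple and from 5.05 to 8.19 in triple K5Cre arrays, and Adipoq, the adipocyte hormone, from 2.47 to 13.46 and from 2.78 to 10.24 (difference -0.19, SE 1.23, of either sign depending on the setting). The mean of 15 skeletal muscle genes reached 10.73 in Q629 and 11.20 in T852, with medians of 4.82 and 4.69. All 11 T and cytotoxic cell genes and all 9 B and plasma cell genes had a higher mean in quadruple arrays, with median differences of 0.41 and 0.28 and 0 genes that passed. Their list means ran from 4.56 to 7.95 and from 3.96 to 8.84 in quadruple arrays, against 4.49 to 5.93 and 3.88 to 5.84 in triple K5Cre arrays. Cd8b1, a co-receptor of cytotoxic T cells, had levels of 3.50, 4.39 and 7.54 and of 3.83, 4.10 and 4.57, and Jchain, the joining chain of secreted antibodies, of 3.05, 8.17 and 12.71 and of 3.21, 6.35 and 10.46. The medians of the macrophage, neutrophil, endothelial and fibroblast lists were -0.02, 0.21, -0.12 and 0.14. How much these cell types bear on the other gene lists was not tested, apart from the fits with adipocyte, squamous and luminal list means as covariates, in which 0 genes passed.

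The spread of single genes between animals was compared next, with 1 array per animal. The SD between animals had a median over genes of 0.31 in the 15 quadruple animals and 0.29 in the 8 triple K5Cre animals. It was larger in the quadruple group for 10189 of 18194 genes (56%), and at least 2-fold larger for 1381 genes there, against 597 genes in the triple K5Cre group. An SD from 8 animals is less precise than one from 15, so these counts alone do not show that quadruple animals varied more. By limma on the absolute deviations from the group mean 0 genes (0%) passed, with a smallest adjusted p of 0.0917. At an unadjusted p under 0.05 there were 1274 genes (7%), 475 (2.61%) with the larger spread in quadruple animals and 799 (4.39%) with the larger spread in triple K5Cre animals. The count depended on the test. Limma on deviations from the group median called 0 genes, with a smallest adjusted p of 0.591 and 604 genes at an unadjusted p under 0.05. An F test of the variances, which was added after the data had been seen and assumes normal values, called 216 genes, 112 with the larger spread in quadruple and 104 in triple K5Cre animals. Limma on the deviations of all 27 arrays as separate values, which counts Q190, Q2154 and Q648 more than once, called 18 genes. Of these, 17 had the larger spread in triple K5Cre animals.

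All 8 genes with the smallest p for spread varied more between triple K5Cre animals, and most were high in the same few arrays. Itih2, which encodes a plasma inhibitor that binds hyaluronan, had levels of 3.996, 4.72 and 6.77 in the quadruple arrays and of 4.05, 5.34 and 12.14 in the triple K5Cre arrays, with T852 (12.14), T848 (11.28) and T627 (8.39) above every quadruple array. The SD between animals was 0.86 in quadruple and 3.26 in triple K5Cre animals (limma adjusted p = 0.0917). Ffar4, a receptor for long-chain fatty acids, had levels of 3.72, 4.62 and 7.66 and of 4.18, 6.37 and 10.54, with T852, T848, T627 and T257 high and the other 4 triple K5Cre arrays at or below 4.77. Slc12a2, a sodium, potassium and chloride cotransporter, had levels of 9.83, 10.67 and 12.90 and of 9.48, 11.26 and 13.36, and the same 4 triple K5Cre arrays lay at 12.57 or above and the other 4 at 9.96 or below. These 4 arrays were also the ones with Krt8 at 13.28 or above and with Axin2 at 6.30 or below.

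Slc4a4, a sodium bicarbonate cotransporter, stood at 10.002 in T627, 9.01 in T848, 7.21 in T852 and 6.89 in T257, against at most 5.07 in the other triple K5Cre arrays and 6.63 in any quadruple array. The mean differences of its 5 probe sets ran from -1.36 to -0.01. Lmcd1, a LIM domain transcriptional cofactor, was highest in T627 (8.95), T852 (8.03) and T848 (7.59), with 6.20 the highest quadruple level. Snap25, a membrane fusion protein of neurons and secretory cells, was read by 2 probe sets with mean differences of -1.39 and -0.19. By the first, which was used here, its levels were 2.06, 2.33 and 3.13 in the quadruple arrays and 2.19, 2.46 and 8.86 in the triple K5Cre arrays, where T848 (8.86) and T852 (6.49) stood alone. A further pair of genes, named after their values had been seen, was high in the same arrays: Bpifa1, a secreted airway protein, was at 9.17 in T848 and 5.34 in T852 and at 3.19 or below in every quadruple array, and Fam83e was at 8.20 and 6.26, with 4.33 the highest quadruple level. Fabp2, a fatty acid binding protein of the intestine, was at 3.26 or below in every quadruple array and above that in T852, T817 and T848. Rmnd5b, a subunit of a ubiquitin ligase, ran from 7.94 to 8.98 and from 7.99 to 9.23 and was low (at 8.35 or below) in T257, T627, T848 and T852, the arrays in which several of the other genes were high. With all arrays as separate values, 7 of the 8 genes passed (Rmnd5b did not). That setting counts Q190, Q2154 and Q648 more than once, so its arrays are not independent. Without T257, as without other single triple K5Cre arrays, up to 10 genes passed.

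**Figure D4:**
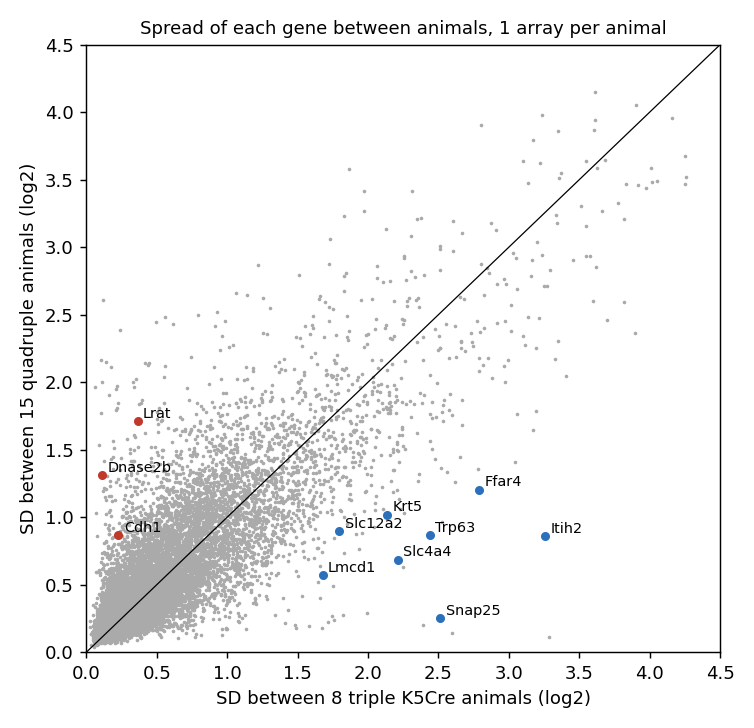
SD of each gene between 8 triple K5Cre animals (horizontal) and between 15 quadruple animals (vertical), in log2 units with 1 array per animal, where the line marks equal SD. Named genes right of the line (blue) varied more between triple K5Cre animals, such as Itih2 (3.26 against 0.86), and those left of it (red) varied more between quadruple animals, such as Lrat (1.71 against 0.36).

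Other genes varied more between quadruple animals, and some of these varied little between triple K5Cre animals. Dkk1 had an SD of 2.61 between quadruple animals and 0.12 between triple K5Cre animals, and Dnase2b of 1.31 and 0.11 (limma adjusted p for spread 0.613 and 0.159). The array kept for Q648 was Q648-1, the highest of all in Dkk1, while Dkk1 was far lower in Q648-2 and Q648-3. The SD of Dkk1 between quadruple animals thus depends on which array was kept. Lrat, which esterifies retinol and was also named after its values had been seen, had levels of 2.98, 4.24 and 8.99 in the quadruple arrays and of 3.22, 3.68 and 4.48 in the triple K5Cre arrays, with 7 quadruple arrays above every triple K5Cre array (SD 1.71 and 0.36, adjusted p = 0.162). Erbb3, a receptor of the EGF family named in the same way, stood between 10.27 and 10.71 in all 8 triple K5Cre arrays and between 7.16 and 11.11 in the quadruple arrays, lowest in Q648-1. Hoxb5 had an SD of 0.82 and 0.14, Mmp7 of 1.595 and 0.34, and Krt84 of 1.87 and 0.39. None of these passed the test for spread.

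Gene lists differed in which group was the more variable. All 9 B and plasma cell genes, all 11 T and cytotoxic cell genes, all 8 neutrophil genes and all 15 metalloproteinase genes had the larger SD in quadruple animals, against 56% of all genes, and their median log2 ratios of the SDs were 1.28, 0.79, 0.52 and 0.42. By contrast 1 of 22 mitosis genes, 4 of 16 interferon-stimulated genes, 8 of 22 canonical Wnt targets, 8 of 27 squamous genes and 0 of 15 skeletal muscle genes had the larger SD in quadruple animals, with median log2 ratios of -0.30, -0.22, -0.27, -0.21 and -0.23. No member of any list passed the test for spread, and members of a list are not independent of each other: T852 had the highest skeletal muscle mean of all 27 arrays, and Q260 the highest B and plasma cell mean.

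Arrays of the same animal were not always alike. The A and B arrays of Q190 had 53 genes (0.291%) at least 2-fold apart, and those of Q2154 had 242 (1.33%). The 3 arrays of Q648 differed from each other at 20.03%, 18.6% and 17.99% of genes, more than the median of 13.6% for pairs of different quadruple animals. Within Q648, Ctnnb1 by 1430533_a_at stood at 11.89 in Q648-1, 10.52 in Q648-2 and 8.34 in Q648-3, and Dkk1 at 12.05, 4.39 and 3.47, a pair of measures picked after their values had been seen. Ctnnb1 by 1420811_a_at stood at 12.74, 12.71 and 12.58 in the same arrays, and the mean of the Wnt ligand list at 5.87, 5.87 and 5.33.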

How the data were processed

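Total RNA from mouse tissue was hybridised to Affymetrix expression arrays, 1 array per sample, after a 3' in vitro transcription labelling, per the labels' protocols. The deposited values were log2 signals that the authors had made with RMA, per the submitters' processing notes, which name no version of it. They ran from 1.65 to 14.61, were not normalised again, and carry no read depth, so the number of arrays limits the precision. Of 45101 probe sets, 34958 carried 1 gene symbol, 932 several and 9211 none, from the platform annotation updated through RefSeq gene IDs, and 204 kept the platform's symbol. Each of 18194 genes was given by its brightest probe set (100 genes had only cross-hybridising ones).

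Levels were fitted with limma 3.58.1 (R 4.3.3) over all 39 arrays, with the animal as a random block (consensus correlation 0.329) and a mean-variance trend, as quadruple minus triple K5Cre. Standard errors and 95% intervals come from that fit. Spread was tested with limma on absolute deviations from the group mean, with 1 array per animal (the first in sample order). Benjamini-Hochberg adjustment ran over all genes at 0.05. Exact tests, correlations and plots used Python 3.11.15 and scipy 1.17.1. The fits were tested on simulated data.

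Text genes were the 12 smallest p for level, the 8 smallest for spread, 15 fixed genes and the 2 smallest p of each of 40 lists; others are marked. The arrays, genes and lists were chosen with earlier results of these data known. P-values measure the spread between these samples. The labels name no batch. Alternatives were probe set choice, low-level filters, normalisation, covariates, blocks, array choices and left-out arrays, with 2 added after the data had been seen (an F test of spread and a test of every probe set).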

Additional observations from a re-analysis of the deposited data

Results flagged for a closer look

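With 8 triple K5Cre arrays, an array was singled out where its gap to the nearest other array exceeded 0.526 of the whole range (Dixon's 95% critical value). Chance alone does this for about 1 in 20 groups. Over all 18194 genes, 1812 (9.96%) had such a triple K5Cre array, most often T852 (477 genes), T627 (400) and T848 (369), and T857 (39) least often. The quadruple group has too many arrays for this rule. Of the 35 named gene results and 40 list means tested, 15 were flagged.

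T627 stood low in 6 of the measures, which overlap, as Krt5 and Trp63 belong to the basal list and Xist to the sex-linked one. Its Krt5 level was 5.74, with the other triple K5Cre arrays at 9.98 to 12.35, and its Trp63 level was 4.02, with the others at 8.46 to 11.21. The mean of its basal and myoepithelial list was 7.07 (others 9.08 to 9.98) and that of the FGF ligands and receptors 5.04 (others 5.59 to 5.87). Its Xist level was 6.999, with the others at 11.43 to 12.25, and the mean of the sex-linked list was 3.73 (others 4.88 to 5.15). The normal gland of T627 was low in Xist too, at 5.64.

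T852 stood high in skeletal muscle genes, with a list mean of 11.20 (others 4.40 to 5.14), in brown fat genes at 6.08 (others 4.74 to 5.32) and in mast cell genes at 6.15 (others 4.37 to 5.201), and low in Cdh1 at 11.54 (others 11.98 to 12.29). T257 stood high in milk proteins at 12.44 (others 5.02 to 7.98) and in B and plasma cells at 5.84 (others 3.88 to 4.80), and low in the EGF and ERK list at 7.02 (others 7.81 to 8.28). T817 stood high in Lef1 at 8.32 (others 4.44 to 5.02) and in the hair follicle list at 8.52 (others 4.61 to 5.99).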

How the results depend on the processing

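The count of genes that differed in level was 0 under 13 of 14 other settings and in 26 of 27 fits that left out 1 array. It was 1 (Ttc36, lower in quadruple arrays) without T627 (leave-one-out range 0 to 1) and 1 without the arrays low in Xist. Genes at an unadjusted p under 0.05 numbered 538 to 1093 under the other settings, apart from the test of every probe set (2251 of 45101 probe sets), and up to 994 with an array left out. The count of genes that differed in spread was 0 under 5 of 8 other settings, among them deviations from the group median (limma, smallest adjusted p 0.591). It was 18 with all arrays as separate values (1 larger and 17 smaller in quadruple animals), which counts some animals more than once. It was 4 with the last array of each animal and 216 by the F test of variances. With a triple K5Cre array left out it was 0 to 10: 10 without T257, 4 without T635, 4 without T857, 3 without T817, 3 without T856 and 2 without T852. It was 0 without T627 and without T848, with a smallest limma adjusted p of 0.0667 and 0.230. Of 1197 values for 35 gene results, 1120 kept direction and side of the threshold, 33 passed it and 44 changed sign, and 29 of the 35 never changed sign. The 12 level and 8 spread genes among them had been chosen by the smallest p in these data, which favours a stable sign. All 6 that changed sign were among the 15 fixed genes. Vim was -0.0208 with the adipocyte covariate, -0.0276 with squamous and luminal covariates, -0.0633 on animal means, -0.0078 with 1 array per animal, -0.0223 with probe sets averaged, -0.0015 without the dimmer genes and -0.0689 without the array lowest in Epcam. With array weights Krt8 was 0.1765 and Krt18 0.1523. Krt8 was 0.0087 with 1 array per animal and 0.0007 without the arrays low in Xist, where Mki67 was -0.1042. Adipoq was 0.0082 with squamous and luminal covariates, and Ctnnb1 0.6895 with its probe sets averaged. With 1 array left out, Vim ran from -0.1160 to 0.1716, Adipoq from -0.8151 to 0.2652, Krt8 from -0.3234 to 0.1793, Krt18 from -0.4074 to 0.1256 and Mki67 from -0.0613 to 0.1643. The cause of these shifts was not tested. No paired analysis was possible because the labels give the groups no shared replicate numbers.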
